A study of Homo sapiens with 6 samples.

Results

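The smooth muscle actin and contractile genes examined here were 10 genes chosen by symbol for their known function, with earlier results of these data known. All 10 were found among the 22701 genes of the deposited table. They were the muscle actins ACTA2, ACTC1 and ACTG2, the actin-binding genes TAGLN, CNN1, CALD1 and PALLD, the myosin light chain gene MYL9 and the tropomyosin genes TPM1 and TPM2. With ligustilide, ACTC1 and ACTG2 fell to 1.80 and 6.18 FPKM on average, against 3.62 and 10.2 FPKM with TGF-β alone. ACTA2, which encodes α-smooth muscle actin, was among the 3 lowest members and averaged 2.97 FPKM with ligustilide and 2.77 FPKM without it. The other 7 members had lower mean FPKM with ligustilide, with changes from -20.6% to -10.3%, and did not pass the test over all genes.

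Polyadenylated RNA was sequenced from LX-2 cells, an established line of human hepatic stellate cells. In 3 libraries the cells had been given TGF-β at a labelled 5 µg/mL together with 20 µM ligustilide (LIG), a phthalide of Angelica and Ligusticum roots, and in 3 they had been given TGF-β at that labelled dose alone. All 6 libraries therefore came from TGF-β-treated cells, and cells without TGF-β were not analysed here. Treatment time is not in the labels, nor do they say that replicates were separate cultures, so each p-value speaks for the spread of these 6 libraries, which may be technical. The comparison asks which transcripts change when LIG is added on top of TGF-β, here for the contractile genes.

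Stellate cells that turn into myofibroblasts in the injured liver assemble actin stress fibres and contract, and α-smooth muscle actin is the usual marker of that state. In smooth muscle and myofibroblasts, thin filaments of actin are stabilised by tropomyosin and bound by calponin, caldesmon and transgelin, while phosphorylation of the regulatory myosin light chain drives contraction. Many of these genes are controlled by serum response factor (SRF) with its cofactors of the MRTF and myocardin family through an element named the CArG box, and TEAD factors bind another element, CATTCC, named M-CAT.

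RefSeq promoter sequences (GRCh38.p14) were at hand for 8 of the 10 members, in 17 windows that each hold the 250 bases before an annotated transcript start, and TAGLN and MYL9 were not among them. The window of each of the genes that fell, ACTC1 and ACTG2, is shown with that of ACTA2 at its downstream start, because these are the muscle actins that the results set side by side. RefSeq gives ACTC1 3 windows and ACTA2 2, and of these the ones shown were picked because they hold a motif, a CArG box for ACTC1 and an M-CAT element for ACTA2. Capitals mark a CArG box (a pair of C, then 6 bases that are each A or T, then a pair of G) or CATTCC on either strand. The windows are chr15:34795550-34795799 (minus strand) for ACTC1, chr2:73892758-73893007 (plus strand) for ACTG2 and chr10:88952774-88953023 (minus strand) for ACTA2, each written 5′ to 3′.
ACTC1: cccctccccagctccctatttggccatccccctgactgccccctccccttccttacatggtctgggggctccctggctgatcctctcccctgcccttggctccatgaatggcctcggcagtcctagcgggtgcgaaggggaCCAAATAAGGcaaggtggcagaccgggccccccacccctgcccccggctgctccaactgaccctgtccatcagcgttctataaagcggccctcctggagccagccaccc
ACTG2: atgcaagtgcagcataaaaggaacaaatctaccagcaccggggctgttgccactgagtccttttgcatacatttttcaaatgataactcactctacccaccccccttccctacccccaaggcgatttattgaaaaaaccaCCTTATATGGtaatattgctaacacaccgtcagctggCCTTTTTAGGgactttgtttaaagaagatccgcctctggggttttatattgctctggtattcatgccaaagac
ACTA2: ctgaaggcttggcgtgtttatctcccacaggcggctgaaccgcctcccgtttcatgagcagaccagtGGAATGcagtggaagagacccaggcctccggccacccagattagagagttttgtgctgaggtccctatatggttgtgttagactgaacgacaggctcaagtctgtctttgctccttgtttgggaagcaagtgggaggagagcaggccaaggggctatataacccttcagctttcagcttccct
The ACTC1 window held 1 CArG box, CCAAATAAGG, beginning 109 bases before the start. The ACTG2 window held 2, CCTTATATGG at 110 bases and CCTTTTTAGG at 73 bases before the start. No CArG box with these letters was in the other 15 member windows, ACTA2 included, and 1.16% of all 35116 promoter windows held at least 1. Sequences 1 base off this strict pattern were not searched for or marked. Sequences each 1 base off include ccctatatgg and ccttgtttgg in the ACTA2 window shown. They also include ccctatttgg, ccttacatgg and ccatgaatgg in the ACTC1 window shown, and gcataaaagg in the ACTG2 window. These are examples and not a full count, so the windows cannot be compared by them. The search therefore does not show that ACTA2 lacks CArG-like elements. CATTCC on either strand was in 5 of the 17 member windows, the ACTA2 window shown among them at 183 bases before the start, and in 11.9% of all windows; the 2 motifs did not overlap in the windows shown. Of the ACTC1 windows not shown, 1 held CATTCC at 174 bases before its start and the other held neither motif, like the other ACTA2 window. These matches are descriptions of sequence, and whether any factor occupies them was not measured.

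FPKM, a fragment count divided by gene length and sequencing depth, rests here on 38252649 to 39102688 fragments per library. LIG replicate 3 and TGF-β replicate 2 stood apart from the other 4 libraries along the first principal component, which held 55.1% of the variance. Their summed FPKM was also higher, at 362034 in LIG replicate 3 and 348518 in TGF-β replicate 2, against 324022 to 328949 in the others. In LIG replicate 3, relative to the mean of LIG replicates 1 and 2, log2(FPKM + 1) was shifted by a median of 0.28 over 1887 genes shorter than 2000 bases and by -0.14 over 4040 genes of at least 5000 bases. The same medians were 0.18 and -0.07 in TGF-β replicate 2 relative to TGF-β replicates 1 and 3. The part of this shift in the results was not tested; results that rest on these libraries are given with and without them. Markers set for the stellate or myofibroblast identity were partly present. VIM was at 1747 to 2091 FPKM with LIG and 1737 to 1971 FPKM with TGF-β, and COL1A1 at 496 to 515 FPKM with LIG and 618 to 691 FPKM with TGF-β. Of the 6 stellate markers with a mean of at least 1 FPKM, the LIG libraries all lay below the TGF-β libraries in 4 (6.73% of all genes tested) and above them in 1 (970 of all 10695 genes tested). The 4 were COL1A1, COL3A1 (9.04 to 11.8 FPKM with LIG and 18.2 to 22.9 FPKM with TGF-β), SPARC (357 to 384 FPKM with LIG and 504 to 509 FPKM with TGF-β) and PDGFRB (2.68 to 3.86 FPKM with LIG and 4.19 to 5.58 FPKM with TGF-β). TIMP1 was the 1 above, at 138 to 179 FPKM with LIG and 121 to 136 FPKM with TGF-β. The part of these markers in the results below was not tested. DES and GFAP did not exceed 0.019 FPKM, and PDGFRA did not exceed 0.388 FPKM. The summed FPKM of the 9 stellate markers in the table was 2782 to 3142 with LIG and 3076 to 3257 with TGF-β. Of 7 smooth muscle markers, only SMTN and CNN1 reached a mean of 1 FPKM, and MYH11, the smooth muscle myosin heavy chain, did not exceed 0.026 FPKM. Of 15 listed heart and skeletal muscle markers, 12 were in the table and 9 were below 1 FPKM in every library. TNNT1 was at 31.8 to 44.8 FPKM with LIG and 35.1 to 44.5 FPKM with TGF-β. The cardiac factor NKX2-5 was at 3.48 to 4.65 FPKM with LIG and 3.63 to 4.74 FPKM with TGF-β. ACTN2 was at 1.71 to 1.89 FPKM with LIG and 1.99 to 2.06 FPKM with TGF-β. Of these 3 markers, the LIG libraries all lay below the TGF-β libraries in 1, ACTN2 (6.73% of all genes tested), and above them in 0. The summed FPKM of that list was 37.4 to 51.7 with LIG and 40.8 to 51.7 with TGF-β. In bulk RNA, fewer cells of a type and less RNA per cell cannot be told apart.

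By level per gene length, TPM1 was the highest of the 10 members in both groups, with 381 ± 21.8 FPKM with LIG and 425 ± 14.4 FPKM with TGF-β (SD, n = 3 each). With LIG it was followed by CALD1, TAGLN and MYL9 at 274, 271 and 248 FPKM, whose library ranges overlapped from each to the next. TPM2 at 174 FPKM, PALLD at 26.1, CNN1 at 8.86, ACTG2 at 6.18, ACTA2 at 2.97 and ACTC1 at 1.80 FPKM came below in non-overlapping steps. With TGF-β alone the order was the same down to ACTG2, and ACTC1 at 3.62 FPKM had a higher mean than ACTA2 at 2.77 FPKM, with overlapping ranges. TAGLN and MYL9, and CNN1 and ACTG2, also overlapped with TGF-β alone.

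**Figure D1:**
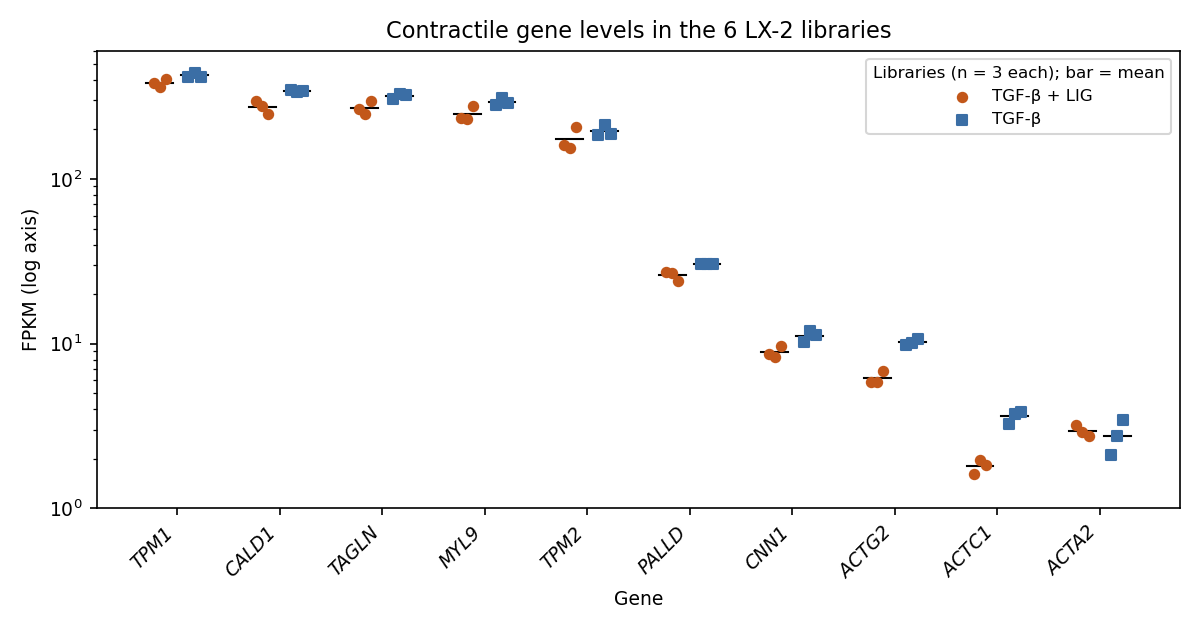
FPKM (log axis) of the 10 contractile genes in each library, LIG with TGF-β in circles and TGF-β alone in squares (n = 3 each), bars marking group means. ACTG2 and ACTC1 show the widest separation, with all 3 LIG values below all 3 TGF-β values, while ACTA2 values overlap.

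ACTC1 encodes cardiac α-actin. LIG replicates 1 to 3 had 1.61, 1.96 and 1.84 FPKM, against 3.26, 3.77 and 3.83 FPKM in the TGF-β-only replicates. All 3 LIG libraries lay below all 3 TGF-β libraries. The ratio of mean FPKM was 0.50, and the change on the log2(FPKM + 1) scale, which understates changes of low genes, was -0.72 ± 0.08 (SE; 95% interval -0.91 to -0.53; limma with Benjamini-Hochberg adjustment over 10695 genes, adjusted p = 0.00971). With a pseudocount of 0.1 in place of 1 the change was -0.97. The values rest on 86 to 205 fragments per library. Leaving out single libraries ended the call in 3 of 6 cases. The limma adjusted p became 0.0638 when the second TGF-β-only library was dropped, 0.0732 when the third was, and 0.0506 when LIG replicate 1 was. It was 0.0922 when low genes were not filtered.

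ACTG2 encodes enteric smooth muscle γ-actin. LIG replicates 1 to 3 had 5.83, 5.88 and 6.84 FPKM, and TGF-β replicates 1 to 3 had 9.81, 10.09 and 10.67 FPKM. The groups did not overlap, and within each group the spread was small next to the gap. The ratio of mean FPKM was 0.61 and the log2 change -0.64 ± 0.08 (95% interval -0.82 to -0.47; limma adjusted p = 0.0127), on 338 to 620 fragments per library. With 1 library left out, the call held only without LIG replicate 3 (adjusted p = 0.0040), and dropping any of the others ended it. The limma adjusted p was then 0.0625, 0.0644 and 0.0903 for the 3 TGF-β-only libraries in order of replicate number, 0.0704 for the first LIG library and 0.0668 for the second. It was also lost with no filter on low genes (0.0734).

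ACTA2 encodes the α-smooth muscle actin used to stain activated stellate cells. LIG replicates 1 to 3 had 3.23, 2.92 and 2.75 FPKM, and the TGF-β-only replicates had 2.11, 2.77 and 3.43 FPKM. The LIG values all fell inside the range of the TGF-β values, so no separation was seen. The log2 change was 0.09 ± 0.13, with a 95% interval from -0.20 to 0.38 that includes modest changes either way (limma adjusted p = 0.945). The sign depended on TGF-β replicate 1, without which it was -0.04. ACTA2 values rest on 147 to 240 fragments per library. In GENCODE release 29 its exons share 380 bases with FAS and 516 bases with ACTA2-AS1, both on the opposite strand, and the use of strand in counting is not given in the sources used here; FAS averaged 1.12 FPKM and ACTA2-AS1 0.01 FPKM over the 6 libraries.

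To set the muscle actins against each other, 2 ratios were taken, chosen after their values were seen. The ratio of ACTC1 to ACTA2 FPKM was 0.50, 0.67 and 0.67 in LIG replicates 1 to 3, against 1.55, 1.36 and 1.12 in TGF-β replicates 1 to 3. The ratio of ACTG2 to ACTA2 FPKM was 1.80, 2.01 and 2.49 in LIG replicates, against 4.65, 3.65 and 3.11 in TGF-β replicates. Both ratios were lower in every LIG library than in every TGF-β library. An exact permutation test of log2 ratios gave a two-sided p = 0.10 for each of the 2 ratios. This is the smallest that 3 against 3 allows, so the design cannot reach 0.05. Because the ratios were chosen after this separation was seen, the p-values only restate it. Both ratios divide by ACTA2, so they are not separate results. Muscle actin transcripts together made up 11.0 ± 0.413 FPKM with LIG and 16.6 ± 1.38 FPKM with TGF-β (SD, n = 3 each). Of their summed FPKM, ACTA2 took 27.2 ± 3.14% with LIG and 16.5 ± 2.62% with TGF-β. The cytoplasmic actins ACTB and ACTG1, which every cell uses, summed to 5672 ± 452 FPKM with LIG and 5751 ± 347 FPKM with TGF-β, so muscle actins were 0.193% of the actin FPKM of these 5 genes with LIG and 0.288% with TGF-β. The log2 change of both ACTB and ACTG1 was -0.02 ± 0.12 (limma adjusted p = 0.991 and 0.989), and its sign changed on leaving out single libraries. ACTA1, the skeletal muscle actin, did not exceed 0.105 FPKM.

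Reads can be shared between actin genes. Over the longest open reading frames in GENCODE release 29 transcripts, ACTA2 and ACTC1 shared 85.5% of bases, ACTC1 and ACTG2 85.9%, and ACTA2 and ACTB 81.7%. The longest run shared exactly was 35 bases between ACTA2 and ACTC1, 49 bases between ACTC1 and ACTG1 and 31 bases between ACTG2 and ACTB. No stretch of 50 bases of the coding sequence of ACTA2, ACTC1 or ACTG2 was found unchanged in that of another of 6 actin genes (these 3, ACTA1, ACTB and ACTG1). Read length and the treatment of multiply mapped reads are not given in the sources used here, so the part of shared reads was not tested.

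**Figure D2:**
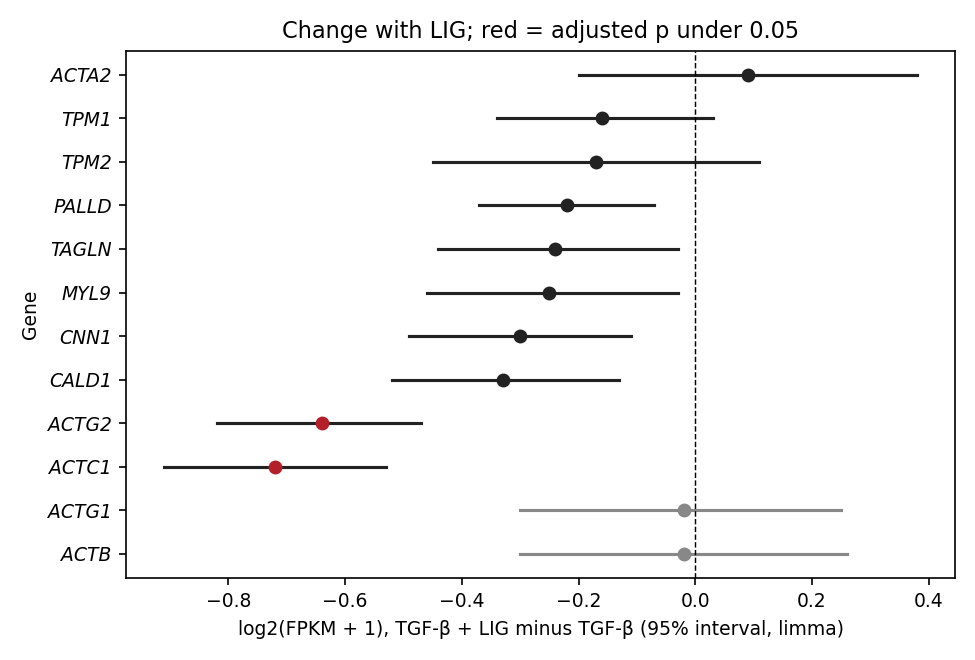
Change in log2(FPKM + 1), TGF-β with LIG minus TGF-β alone, for the 10 contractile genes and, in grey, the cytoplasmic actins, with 95% intervals from limma (n = 3 each). Red points are ACTC1 at -0.72 and ACTG2 at -0.64, the members with an adjusted p under 0.05; the interval of ACTA2 spans 0.

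Among the actin-binding genes, CALD1 encodes caldesmon, which binds actin and tropomyosin and restrains myosin. LIG replicates had 296.0, 277.1 and 247.8 FPKM, against 346.1, 337.4 and 342.9 FPKM in the TGF-β-only replicates. LIG values were all lower, and LIG replicate 3 was the lowest of the 6. The log2 change was -0.33 ± 0.09 (95% interval -0.52 to -0.13) and did not pass (limma adjusted p = 0.259). CNN1 encodes basic calponin, an inhibitor of actomyosin found in differentiated smooth muscle. It was at 8.66, 8.25 and 9.66 FPKM in LIG replicates, against 10.26, 11.92 and 11.26 FPKM in TGF-β replicates, again without overlap. Its log2 change was -0.30 ± 0.08 (95% interval -0.49 to -0.11; limma adjusted p = 0.264).

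TAGLN encodes transgelin (SM22α), an early marker of smooth muscle differentiation that bundles actin. It was at 266.9, 246.6 and 298.4 FPKM in LIG replicates, against 304.5, 326.8 and 323.7 FPKM in TGF-β replicates. The groups did not overlap, but LIG replicate 3 came close to TGF-β replicate 1. The log2 change was -0.24 ± 0.09 (95% interval -0.44 to -0.03; limma adjusted p = 0.509). PALLD encodes palladin, a scaffold of stress fibres and focal adhesions. It was at 27.12, 26.92 and 24.16 FPKM in LIG replicates, against 30.43, 30.54 and 30.39 FPKM in TGF-β replicates, which were almost equal to each other. Its log2 change was -0.22 ± 0.07 (95% interval -0.37 to -0.07; limma adjusted p = 0.328).

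MYL9 encodes the regulatory myosin light chain that is phosphorylated in contraction. It was at 234.2, 230.0 and 279.1 FPKM in LIG replicates, against 282.6, 307.9 and 288.1 FPKM in TGF-β replicates. LIG replicate 3 was just below the lowest TGF-β value, and the other 2 LIG libraries were well below it. The log2 change was -0.25 ± 0.09 (95% interval -0.46 to -0.03; limma adjusted p = 0.515).

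The tropomyosins, which lie along actin filaments, had the smallest changes of the lower members. TPM1 was at 380.5, 359.8 and 403.3 FPKM in LIG replicates, against 415.4, 441.5 and 417.8 FPKM in TGF-β replicates, without overlap. Its log2 change was -0.16 ± 0.08 (95% interval -0.34 to 0.03; limma adjusted p = 0.685). TPM2 was at 160.3, 154.7 and 207.8 FPKM in LIG replicates, against 185.4, 212.8 and 187.2 FPKM in TGF-β replicates. The TPM2 groups overlapped, since LIG replicate 3 was above TGF-β replicates 1 and 3, and its log2 change was -0.17 ± 0.12 (95% interval -0.45 to 0.11; limma adjusted p = 0.811).

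Over the list, 2 of the 10 members fell, none rose and 8 did not pass (limma). Of all 10695 genes tested, 0.692% passed, 0.505% lower and 0.187% higher. By limma voom on the recovered fragments the same 2 members fell, while 0.608% of all genes fell. In the fit to log2(FPKM + 1), at an unadjusted p under 0.05, there were 7 lower members and none higher, against 8.41% of all genes in either direction and 4.21% lower. In 8 of the 10 members the LIG libraries all lay below the TGF-β libraries, which was so for 6.73% of all genes; the groups did not overlap, in either direction, for 15.8%. The log2 change was below 0 in 9 members (39.1% of all genes), and the median over the members was -0.24, against 0.03 over all genes. The 95% interval excluded 0 in 5 of the 8 members that did not pass. This repeats the count at an unadjusted p under 0.05 (8.41% of all genes, those that passed included). Since the members were chosen with earlier results of these data known, these counts are descriptions.

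**Figure D3:**
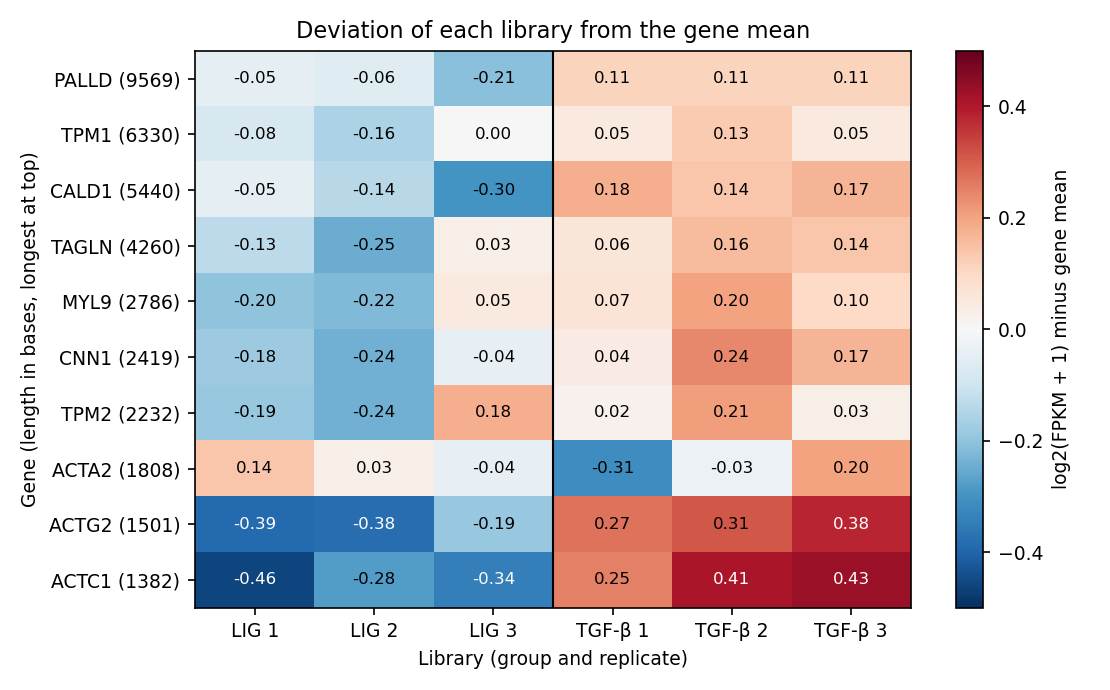
Deviation of each library from the gene's mean over 6 libraries in log2(FPKM + 1), for the 10 members ordered by gene length (in parentheses, in bases, as implied by the FPKM values), with LIG libraries left of the TGF-β libraries. LIG replicate 3 was 0.18 above the mean for TPM2 and 0.30 below it for CALD1, whereas ACTC1 and ACTG2 were below the mean in all LIG libraries.

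Within the LIG group, the members that did not pass were split by LIG replicate 3. Relative to the mean of LIG replicates 1 and 2, that library was higher by 0.40 for TPM2, 0.26 for MYL9, 0.22 for TAGLN, 0.17 for CNN1 and 0.12 for TPM1 on the log2(FPKM + 1) scale. It was lower for CALD1, PALLD and ACTA2, at -0.21, -0.16 and -0.12. The gene lengths implied by the FPKM values were 1808 bases for ACTA2, 2232 for TPM2, 2419 for CNN1, 2786 for MYL9, 4260 for TAGLN, 5440 for CALD1, 6330 for TPM1 and 9569 for PALLD. ACTA2, the shortest of the 8, was lower, on 195 fragments in LIG replicate 3 against 226 and 203 in LIG replicates 1 and 2. TPM1, at 6330 bases, was higher. Of the 2 members that passed, LIG replicate 3 was higher by 0.19 for ACTG2 (1501 bases) and by 0.03 for ACTC1 (1382 bases). The part of gene length in these deviations was not tested. Without LIG replicate 3 and TGF-β replicate 2, 9 of the 10 members fell, all but ACTA2, while 2.69% of all genes fell. In that comparison TAGLN had a log2 change of -0.29 (limma adjusted p = 0.0124), MYL9 -0.30 (0.00182), TPM2 -0.24 (0.00598) and CALD1 -0.27 (0.00815). The 2 libraries were left out because they stood apart, so the spread among the other 4 is small by that choice. After a correction of each library for gene length, chosen after seeing the data, 5 members fell (ACTC1, ACTG2, CNN1, CALD1 and MYL9), while 1.87% of all genes fell. Under quantile normalization 4 members fell (ACTC1, ACTG2, TAGLN and MYL9), while 0.701% of all genes fell.

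No gene of the related lists passed the test, though some did in comparisons with other processing. Of 35 related genes that passed the filter on low values, 0 passed limma's threshold, 4 had an unadjusted p under 0.05 (8.41% of all genes) and 0 were called by voom on the recovered fragments. Among 24 other smooth muscle and stress fibre genes, the median log2 change was -0.05 and 18 were below 0 (39.1% of all genes). LIG libraries all lay below TGF-β libraries in 4 of the 24 (6.73% of all genes). CNN2, a broadly expressed calponin, was at 119.2, 120.5 and 134.0 FPKM in LIG replicates, against 143.1, 145.8 and 143.5 FPKM in TGF-β replicates (log2 change -0.21 ± 0.07, limma adjusted p = 0.412). MYLK, the kinase that phosphorylates myosin light chain, was at 12.96, 12.76 and 9.16 FPKM in LIG replicates, against 16.70, 12.71 and 15.63 FPKM in TGF-β replicates (-0.35 ± 0.14, adjusted p = 0.547). PDLIM1, a linker of α-actinin, was at 56.1 ± 6.14 FPKM with LIG and 65.0 ± 3.32 FPKM with TGF-β (adjusted p = 0.562). SMTN, smoothelin, ran the other way, at 24.4 ± 1.78 FPKM with LIG and 21.2 ± 1.01 FPKM with TGF-β (0.20 ± 0.07, adjusted p = 0.495). Without LIG replicate 3 and TGF-β replicate 2, CNN2, MYLK and PDLIM1 passed (limma adjusted p = 0.00301, 0.00992 and 0.00359), as did 4.65% of all genes. SMTN did not (0.247). With the gene length correction CNN2 and PDLIM1 passed (limma adjusted p = 0.0103 and 0.00758) and MYLK and SMTN did not (0.0609 and 0.255).

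None of the transcriptional regulators passed. SRF was at 16.34, 16.26 and 16.43 FPKM in LIG replicates and 16.61, 15.93 and 17.79 FPKM in TGF-β replicates (log2 change -0.03, 95% interval -0.18 to 0.11; limma adjusted p = 0.963). MRTFA, its actin-sensing cofactor, was at 12.3 ± 0.478 FPKM with LIG and 12.6 ± 1.13 FPKM with TGF-β (adjusted p = 0.976). MRTFB, a related cofactor, was at 2.90 ± 0.841 FPKM with LIG and 3.26 ± 0.583 FPKM with TGF-β (adjusted p = 0.929). The signs of SRF, MRTFA and MRTFB changed on leaving out single libraries. MYOCD, which encodes the smooth muscle and cardiac cofactor myocardin, did not pass the filter on low values. It was at 0.65, 0.70 and 0.45 FPKM in LIG replicates, against 0.89, 0.79 and 0.91 FPKM in TGF-β replicates, so all LIG values were lower. When low genes were not filtered, MYOCD had a log2 change of -0.22 ± 0.07 (limma adjusted p = 0.604). Over the 9 regulators that passed the filter, the median log2 change was -0.03 and the range -0.14 to 0.10. The regulators with the smallest p also included ELK4 and FHL3, with log2 changes of 0.10 and -0.11 (adjusted p = 0.826 and 0.843), and FHL1, a LIM protein of muscle, at 0.08 (0.897).

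**Figure D4:**
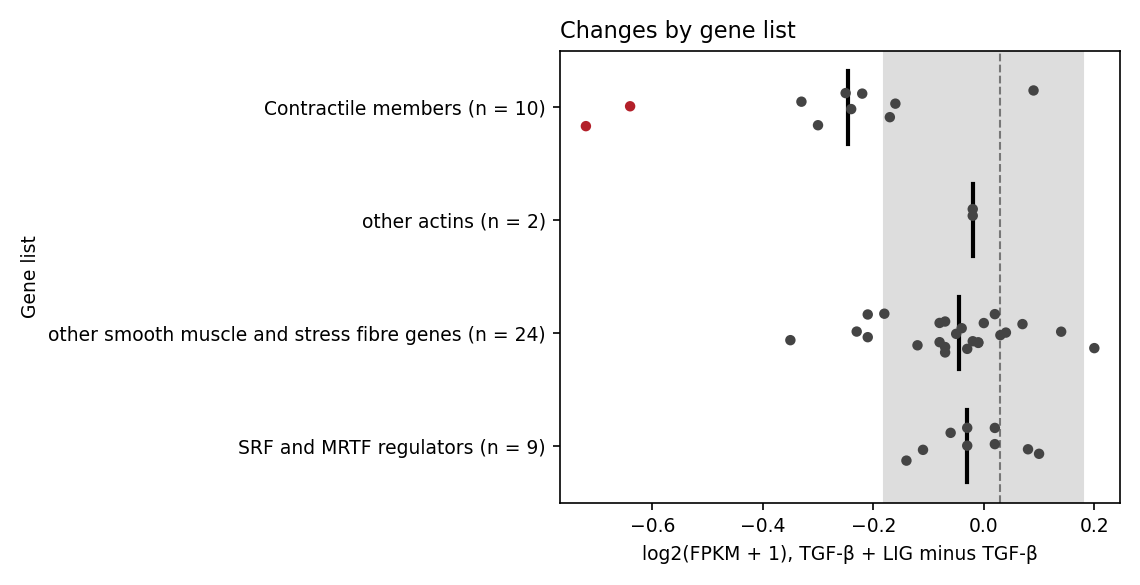
Change in log2(FPKM + 1), TGF-β with LIG minus TGF-β alone, of the contractile members and 3 related gene lists, 1 point per gene that passed the filter, with vertical bars at list medians and red points at an adjusted p under 0.05. The grey band spans the 5th to 95th percentile of all genes (-0.18 to 0.18) and the dashed line their median (0.03); the median of the members was -0.24 and that of the other smooth muscle and stress fibre genes -0.05.

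To describe likeness of pattern, distances between log2(FPKM + 1) values over the 6 libraries, each gene centred on its mean, were computed for ACTC1 and ACTA2 against all tested genes. The 5 genes outside the list nearest to ACTC1 were NPPB at a distance of 0.16, MEST at 0.23, NREP at 0.24, RGS4 at 0.25 and BNIP3 at 0.26. NPPB encodes B-type natriuretic peptide, RGS4 a regulator of G protein signalling and BNIP3 a mitophagy receptor. As their likeness to ACTC1 implies, each was lower with LIG, with log2 changes from -0.84 for MEST to -0.58 for BNIP3, given as a description. ACTG2 was at a distance of 0.22 from ACTC1, and the other members were at 0.56 to 1.05. The 5 nearest to ACTA2 were C1R at 0.16, LOC105371492 at 0.18, SLC40A1 at 0.20, CABLES1 at 0.23 and TMEM231 at 0.23, with log2 changes from 0.04 to 0.13, while the nearest member was TPM1 at 0.51.

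By position on GRCh38 (GENCODE release 29), the members lie on separate chromosomes apart from ACTC1 and TPM1. ACTA2 is on chromosome 10 from 88935074 to 88991339, ACTC1 on chromosome 15 from 34788095 to 34795726 and ACTG2 on chromosome 2 from 73892314 to 73919865. TPM1 lies on chromosome 15 from 63042632 to 63071915. Exons of ACTC1, TAGLN, TPM1 and PALLD share bases with exons on the other strand, with TAGLN sharing 446 bases with PCSK7, which averaged 9.12 FPKM, and PALLD sharing 108 bases with CBR4, at 2.18 FPKM. TPM1 shares 2070 bases with TPM1-AS, at 0.27 FPKM. The annotation used for the FPKM values is not given in the sources used here, and the length they imply for ACTC1, 1382 bases, differs from the 4602 exon bases in GENCODE.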

How the data were processed

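Polyadenylated RNA of LX-2 cells was analysed in 6 libraries, 3 per group, grouped by their titles. The authors deposited a table of FPKM values with a column for each library. Tools named without roles, per the submitters' processing notes, are HISAT2 2.1.0, fastp and DESeq2, with the build GRCh38.p13. Counting tool, annotation and strand setting are not given in the sources used here. FPKM are whole multiples of a step per gene, from which fragments and gene lengths were recovered (100.0% of 114123 values above 0 whole within 0.01).

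The 10695 genes whose mean FPKM reached 1 entered a two-sided limma 3.58.1 fit (R 4.3.3) of log2(FPKM + 1) on group, with a trend in the prior variance. Changes are LIG over TGF-β alone, and p-values were adjusted by Benjamini-Hochberg over all 10695 (threshold 0.05). The fit was tested on simulated data with independent noise in each library. That simulation did not hold the shift of LIG replicate 3 and TGF-β replicate 2, so it does not speak to its effect. Alternatives were other pseudocounts, filters and scalings, no trend, a replicate block, voom on fragments (84 genes called), libraries left out, and a gene length correction (a lowess curve of deviation on length, subtracted per library). Members, lists and the naming rule were chosen with earlier results of these data known. Named genes were the 10 members, up to 4 per related list with the smallest adjusted p, 8 fixed genes, and the 5 nearest to ACTA2 and to ACTC1. A further gene list is not reported here. Promoters are from RefSeq and overlaps from GENCODE release 29. Figures used Python 3.11.15 and matplotlib 3.10.9.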

Additional observations from a re-analysis of the deposited data

How the results depend on the processing

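ACTC1 and ACTG2 were lower under all alternatives in which they were tested, with log2 changes from -1.03 to -0.67 and from -0.75 to -0.61. Of the 10 members, 0 were called with no filter, 1 with a mean FPKM of at least 5 (where ACTC1 and ACTA2 were not tested), 4 under quantile normalization, 5 with the gene length correction, 9 without TGF-β replicate 2 and LIG replicate 3 together, and 0 to 2 with single libraries left out. Over all genes the count of 74 became 14 with no filter, 64 with a mean FPKM of at least 5 and 107 under quantile normalization. It was 280 with the gene length correction, 497 without both libraries and 11 to 93 with single libraries left out. Of the 35 related genes, 2 were called with the gene length correction (280 of all 10695 genes). Without both libraries 4 of them were called (4.65% of all genes), and 0 with any single library left out. The cause of these shifts was not tested. With single libraries left out, the log2 change ranged from -0.04 to 0.21 for ACTA2, -0.08 to 0.04 for ACTB, -0.09 to 0.02 for ACTG1, -0.10 to 0.01 for MRTFA (-0.11 without both), -0.07 to 0.01 for SRF and -0.26 to 0.05 for MRTFB. With the replicate number as a block, 22 genes were called, ACTC1 and ACTG2 among them (limma adjusted p = 0.0317 and 0.0481). Deviations of same-numbered libraries correlated at 0.47, -0.57 and -0.34, and not every library correlated best with its own number. The highest correlation, 0.68, was between LIG replicate 3 and TGF-β replicate 2, the libraries that stood apart. Because these libraries weigh on all the correlations, the values cannot show whether the numbers pair cultures. With 86 to 240 fragments per library, ACTC1 and ACTA2 have the least depth of the members.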
